A study of Mus musculus with 7 samples.

Results

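The genes described here are core regulators of programmed cell death: the anti-apoptotic BCL2 proteins Bcl2, Bcl2l1 (BCL-X) and Mcl1, the pore-forming effector Bak1, the BH3-only proteins Bbc3 (PUMA) and Bcl2l11 (BIM), and the inhibitors Api5, Xiap and Birc5 (survivin). All probe sets of the array that its annotation assigned to 1 of 10 listed gene names were taken, which gave 30 probe sets of 9 genes among 22690 probe sets in all. Bax was not analysed here. In 23 of the 30 probe sets, from all 9 genes, the signal reached the 40th percentile of its array in 2 or more embryos. These 23 were tested with 14554 probe sets in all, and the 7 others are accounted for beside their genes.

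Expression was measured in single whole embryos of the FVB inbred strain at embryonic day 10.5, on 7 Affymetrix 430A 2.0 arrays. Of the 5 embryos exposed to maternal diabetes, 2 had a neural tube defect (NTD) and 3 had no malformation, and 2 control embryos came from an untreated pregnancy. Diabetes had been induced in the mother with streptozotocin, which destroys the insulin-producing beta cells. According to the methods there was 1 dam on each side, a diabetic one for all exposed embryos, so diabetes and dam cannot be told apart, and p-values measure only the spread between littermates.

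In the mitochondrial pathway of apoptosis, BH3-only proteins are the sensors of stress. They neutralise the anti-apoptotic BCL2 proteins and activate the effectors, which form pores in the outer mitochondrial membrane. Cytochrome c then leaks out and starts the caspase cascade, and XIAP acts further down by binding caspases directly. In the embryo the same pathway removes surplus cells, for example where the neural folds meet and fuse. Much of it is set by binding between proteins, which RNA levels do not measure.

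Median signals of the 7 arrays lay between 205.7 and 218.3, and each array's 40th percentile, the limit used for testing, lay between 131.5 and 146.4. Markers of neural progenitors, heart, somites and limb bud were present, with 4 of 5, 5 of 5, 4 of 5 and 2 of 4 genes at the limit in 2 or more embryos, while 0 of 4 genes of trophoblast and decidua reached it. The summed signals of these markers were not equal between groups. Neural progenitor markers summed to 4805 to 6401 in exposed and 6732 to 6746 in control embryos. Heart markers summed to 7795 to 9255 in exposed and 7297 to 7565 in control embryos, and somite markers to 1569 to 1782 and 1283 to 1362. Each sum was without overlap, but most single genes were not. Among tested neural progenitor genes only Fabp7 separated the groups (log2 fold change, exposed minus control, -0.85), while Sox2, Pax6 and Nes overlapped. Among tested somite genes only Meox1 did (0.72), while Pax1, Tcf15 and Uncx overlapped. All tested heart genes overlapped. Limb bud markers overlapped, at 1258 to 1789 in exposed and 1750.4 to 1839.5 in control embryos. Exposed embryo 1 without NTD stood apart in yolk sac and liver markers, which summed to 24982 there, against 1479 to 2639.6 in the other exposed embryos and 3173 to 3892 in the control embryos. Its trophoblast and decidua markers, mostly low signals, summed to 486.8. That sum was 135.8 to 221.0 in the other exposed embryos and 125.6 to 171.5 in the control embryos. Markers of primitive red cells summed to 64049 to 83489 in exposed embryos and to 51903 to 54146 in control embryos, and all 5 tested genes of that list were higher in every exposed embryo than in both controls. The part of these tissue markers in the results that follow was not tested.

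Of the 23 tested probe sets, 1 differed between exposed and control embryos at an adjusted p under 0.05 in limma, a linear model fitted across all probe sets. It belonged to Api5 and was lower in exposed embryos. Over the whole array 25 of 14554 probe sets (0.172%) passed, of which 9 (0.0618%) were lower. At an unadjusted p under 0.05 it was 4 of 23, beside 16.2% of all tested probe sets, so at that level the apoptosis genes stood close to the background. Exposed and control embryos did not overlap in 5 of 23, beside 24.7% of all probe sets. Exposed embryos were above both controls in 1 of these (11.4% of all) and below both in 4 (13.4% of all). The log2 fold change, exposed minus control, was below 0 in 14 and above 0 in 9 of the 23, with a median of -0.12 beside 0.00 over all tested probe sets. Genes with several probe sets weigh more in this count, Mcl1 with 6. By each gene's tested probe set of highest signal, the values were 0.01 (Bcl2), 0.18 (Bcl2l1), -0.22 (Mcl1), 0.32 (Bak1) and 0.40 (Bbc3). For the other genes they were 0.24 (Bcl2l11), -0.15 (Api5), -0.27 (Xiap) and 0.00 (Birc5).

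**Figure D1:**
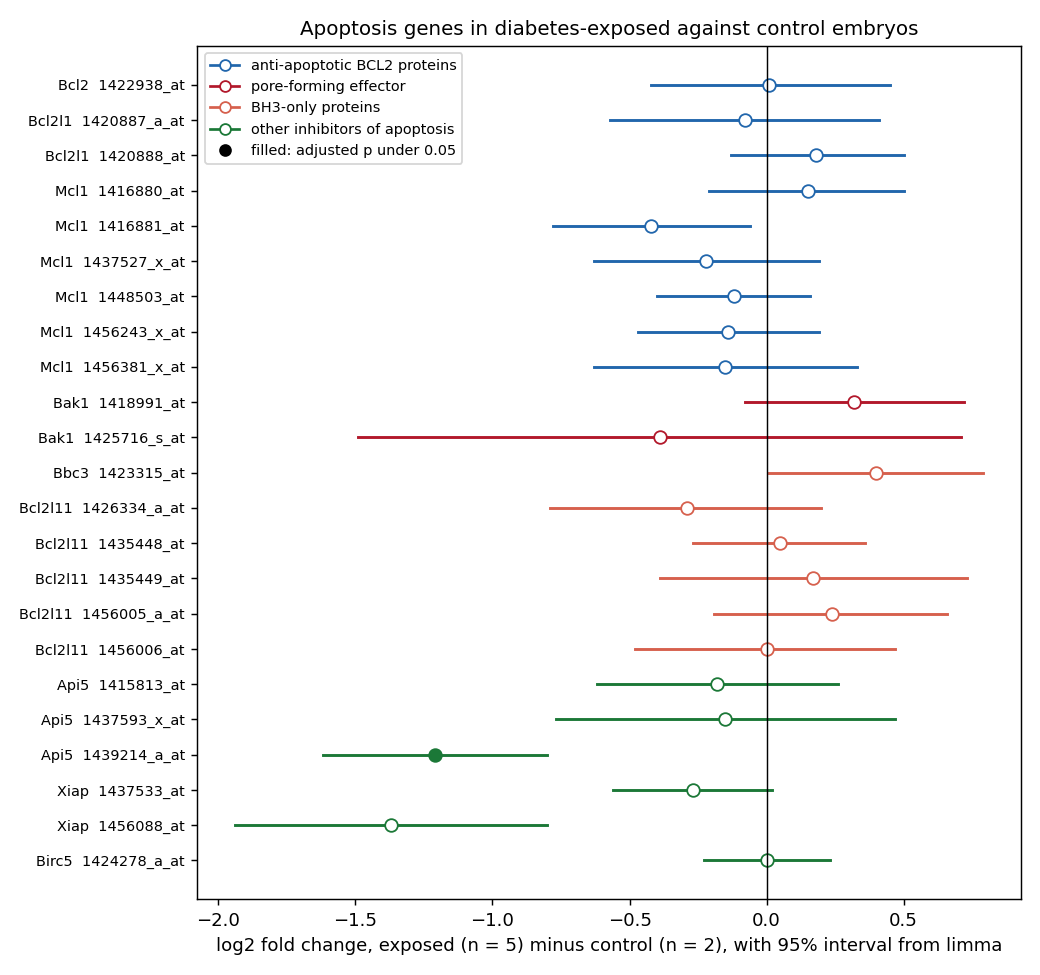
Log2 fold change (exposed minus control, x axis) with its 95% interval from limma for each of the 23 tested probe sets (y axis), coloured by the role of the protein; filled points had an adjusted p under 0.05. The single filled point is Api5 1439214_a_at at -1.21, and Xiap 1456088_at lies at -1.37 with an adjusted p of 0.0619.

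Api5 encodes apoptosis inhibitor 5, a nuclear protein that protects cultured cells from death after loss of growth factors and restrains apoptosis driven by E2F1. Its only promoter window in RefSeq lies on the minus strand at chr2:94438187-94438436 (GRCm38.p6) and is shown because Api5 held the probe set that passed. The 250 bases end just before the transcription start, and capitals mark CCAAT boxes (CCAAT, read on either strand).

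Api5: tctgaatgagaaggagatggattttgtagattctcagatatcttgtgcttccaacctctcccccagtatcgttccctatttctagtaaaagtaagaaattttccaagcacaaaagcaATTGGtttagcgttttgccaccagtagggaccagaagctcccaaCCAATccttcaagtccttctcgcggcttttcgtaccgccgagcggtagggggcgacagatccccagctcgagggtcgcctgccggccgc

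The window held 2 CCAAT boxes, a motif found in 33.8% of 32851 promoter windows of that length. It held no FOXO core (GTAAACA, 3.17% of windows), no HIF core (ACGTG, 16.6%), no antioxidant response element core (TGACNNNGC, 10.2%) and no Sp1 box (GGGCGG, 32.7%), on either strand.

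The Api5 probe set 1439214_a_at, whose suffix marks a match to several transcripts of a gene, had signals of 236 and 239.7 in the exposed embryos with NTD, 164, 200.0 and 218 in those without NTD, and 531 and 446 in the control embryos. All 5 exposed embryos lay below both controls. The means were 211.8 ± 30.9 in exposed embryos (SD, n = 5) and 488 ± 60.2 in control embryos (SD, n = 2), which was 2.3-fold lower in exposed embryos. Its log2 fold change was -1.21 (SE 0.19, 95% interval -1.62 to -0.80, limma adjusted p = 0.0364). The exact two-sided permutation test over the 21 possible splits gave p = 0.048, the smallest these numbers of embryos allow. The call was narrow: in 20 alternative settings the fold change stayed between -1.34 and -1.03, while the adjusted p ran over 0.00798 to 0.362 and was under 0.05 in 8. It was lost when exposed embryo 2 or 3 without NTD (adjusted p = 0.0683 and 0.0745), exposed embryo 2 with NTD (0.0681), control 1 (0.362) or control 2 (0.248) was left out. Without the exposed embryo with high yolk sac markers it was 0.0333. In whole embryos, fewer cells of a type and less RNA per cell cannot be told apart.

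The other Api5 probe sets did not share this separation. Probe set 1415813_at had signals of 1104 and 1507 in exposed embryos with NTD, 1018, 950.3 and 1433 in those without, and 1521 and 1175 in controls, so the groups overlapped (log2 fold change -0.18, 95% interval -0.62 to 0.26, adjusted p = 0.691). Probe set 1437593_x_at, of a type that may also bind other sequences, ranged over 1472 to 3587 in exposed embryos and 2545 to 3061 in control embryos, and its log2 fold change was -0.15 (SE 0.28, adjusted p = 0.837). The remaining one, 1437053_x_at, was below the limit on every array (4.57 to 20.9 in exposed and 13.9 to 23.2 in control embryos) and was not tested. The log2 fold change of 1439214_a_at minus that of 1415813_at was -1.03, and minus that of 1437593_x_at it was -1.07. These differences were singled out after the values had been seen and are given as a description, without a test. Which transcripts each probe set reads was not examined.

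**Figure D2:**
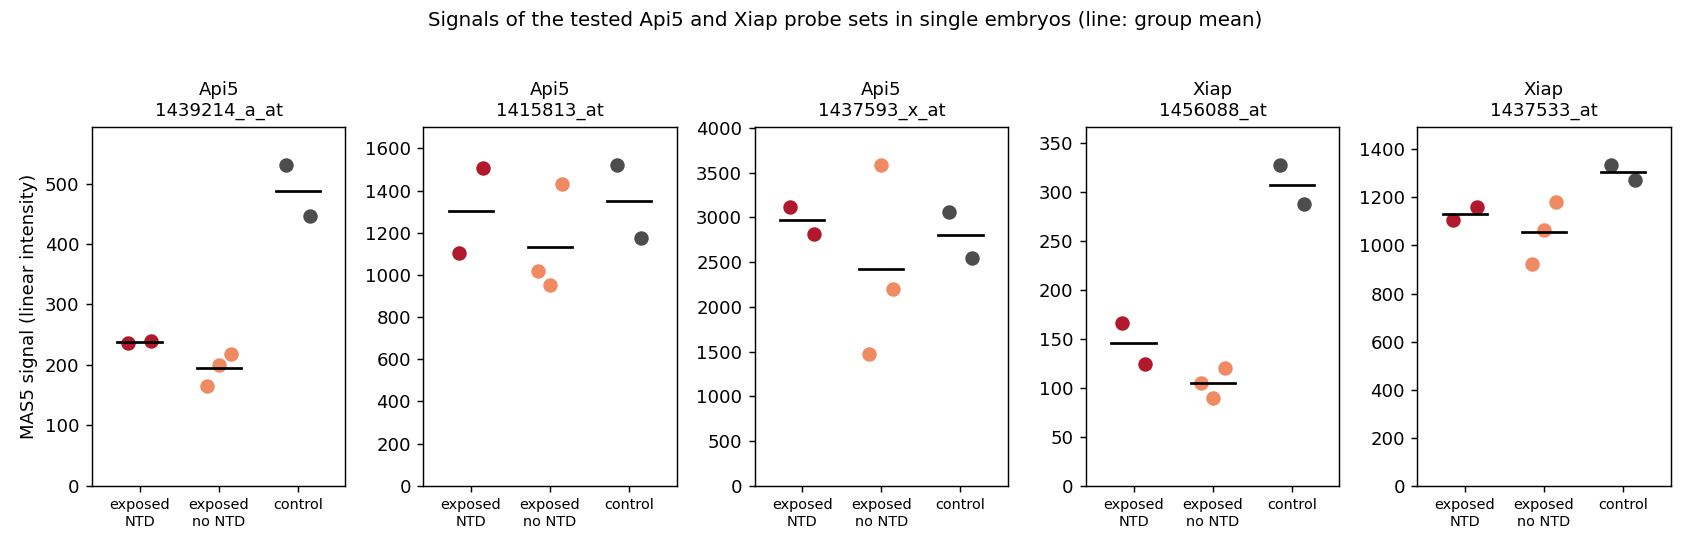
MAS5 signal (linear, y axis, from 0) of the 3 tested Api5 and the 2 tested Xiap probe sets in each embryo (points), with exposed embryos left of the control embryos and the group mean as a line. In Api5 1439214_a_at and in Xiap 1456088_at all exposed embryos lie at or below 239.7 and 166, and all controls at or above 446 and 287.

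Xiap, on the X chromosome, encodes the X-linked inhibitor of apoptosis, which binds and blocks initiator and executioner caspases. RefSeq gave it 3 promoter windows, and the most upstream, on the plus strand at chrX:42067586-42067835 (GRCm38.p6), is shown because this gene had the largest fold change of the group. Capitals mark an Sp1 box.

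Xiap: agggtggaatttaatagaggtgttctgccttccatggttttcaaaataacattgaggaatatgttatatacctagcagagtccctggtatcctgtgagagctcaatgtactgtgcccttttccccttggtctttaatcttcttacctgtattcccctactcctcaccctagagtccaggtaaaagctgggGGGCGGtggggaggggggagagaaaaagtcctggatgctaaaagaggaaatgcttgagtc

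This window held 1 Sp1 box and none of the other motifs. The second of its windows, chrX:42068148-42068397, held 1 HIF core and 1 Sp1 box, and the last, chrX:42070992-42071241, held no match.

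Xiap probe set 1456088_at had signals of 166 and 124 in the exposed embryos with NTD, 105, 89.6 and 120.4 in those without, and 327 and 287 in the controls. The exposed embryos lay below both controls without overlap, and only the first embryo with NTD among them reached the 40th percentile of its array. Both controls reached it, so this probe set entered the test through the group in which it was higher, and its place in the counts above depends on that. The means were 121 ± 28.7 in exposed embryos (SD, n = 5) and 307.1 ± 28.3 in control embryos (SD, n = 2), with a log2 fold change of -1.37 (SE 0.26, 95% interval -1.94 to -0.80). This did not pass (limma adjusted p = 0.0619, exact permutation p = 0.048). Over 19 alternatives the adjusted p ran from 0.0192 to 0.506 and was under 0.05 in 4, and without exposed embryo 1 with NTD it was 0.0398.

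The second tested Xiap probe set, 1437533_at, pointed the same way with a smaller difference. It read 1104 and 1158 in exposed embryos with NTD, 921, 1065 and 1181 in those without, and 1335 and 1274 in controls. Again no exposed embryo reached a control, but the log2 fold change of -0.27 (SE 0.13, 95% interval -0.56 to 0.02) did not pass (adjusted p = 0.344). The log2 fold change of 1456088_at minus that of 1437533_at was -1.10, again a description without a test. The 4 further Xiap probe sets (1421394_a_at, 1426636_a_at, 1450231_a_at and 1450232_at) stayed below the limit on all arrays, with signals of 6.23 to 52.4 in exposed and 9.37 to 39.2 in control embryos.

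Because Xiap is X-linked, the sex of the embryos was read from Xist, the RNA that silences an X chromosome in females, and from the Y-linked Eif2s3y. Xist 1436936_s_at gave 7533 and 256 in exposed embryos with NTD, 6074, 6840 and 6098 in those without, and 181 and 165 in controls. Eif2s3y gave 0.697 and 245 in exposed embryos with NTD, 0.549, 0.689 and 2.76 in those without, and 227 and 203 in controls. Thus 4 of 5 exposed embryos had high Xist, and exposed embryo 2 with NTD had low Xist and high Eif2s3y as both controls did. In that embryo Xiap 1456088_at was 124 and 1437533_at was 1158, both below the controls, as in the 4 other exposed embryos. This is the value of 1 embryo, and the part of sex in the Xiap values and in the other results was not tested.

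Birc5 encodes survivin, a member of the same IAP family that acts mainly in chromosome segregation and is abundant in dividing cells. Its probe set 1424278_a_at read 2626 and 2782 in exposed embryos with NTD, 2501, 2742 and 2582 in those without, and 2526 and 2769 in controls. The groups covered almost the same range, and the log2 fold change was 0.00 with a 95% interval of -0.23 to 0.23.

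Among the anti-apoptotic BCL2 proteins no probe set passed. Bcl2, the founding member, which is anchored in mitochondrial and endoplasmic reticulum membranes, had signals of 156 and 182 in exposed embryos with NTD, 168, 160.3 and 187 in those without, and 153 and 186 in controls (1422938_at, log2 fold change 0.01, 95% interval -0.42 to 0.45). Bcl2l1, whose long product BCL-XL keeps immature neurons and red cell precursors of the embryo alive, had log2 fold changes of 0.18 (1420888_at, adjusted p = 0.554) and -0.08 (1420887_a_at, adjusted p = 0.895). The summed markers of primitive red cells were higher in exposed embryos, as given above, and their part in the Bcl2l1 values was not tested. Its probe sets 1426050_at and 1426191_a_at were below the limit in every embryo, at 13.7 to 105.9 in exposed and 27.8 to 77.9 in control embryos.

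Mcl1, a short-lived protein required from the earliest embryonic stages, was read by 6 probe sets, all above the limit. Mcl1 1416881_at had signals of 859 and 560 in exposed embryos with NTD, 619, 669.6 and 711 in those without, and 911 and 898 in controls. The exposed embryos lay below both controls, although the first with NTD came close to them. Its log2 fold change was -0.42 (SE 0.16, unadjusted p = 0.0275 in limma), which did not pass over all probe sets (adjusted p = 0.248), and the exact permutation p was 0.095. The 5 other Mcl1 probe sets overlapped between groups, with log2 fold changes of 0.15 (1416880_at), -0.22 (1437527_x_at), -0.12 (1448503_at), -0.14 (1456243_x_at) and -0.15 (1456381_x_at).

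Bak1, an effector that resides on mitochondria and forms pores once activated, had signals of 225 and 269 in exposed embryos with NTD, 323, 275 and 285 in those without, and 247 and 196 in controls (1418991_at). The first embryo with NTD lay between the controls and the 4 other exposed embryos above them, and the log2 fold change of 0.32 (95% interval -0.08 to 0.72, adjusted p = 0.413) did not pass. A second Bak1 probe set, 1425716_s_at, varied from 45.8 to 217.7 in exposed embryos and from 153 to 158 in control embryos, and its log2 fold change of -0.39 had a 95% interval of -1.49 to 0.71.

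Among the BH3-only genes, Bbc3 encodes PUMA, which binds every anti-apoptotic member of the family and is switched on by p53 and by FOXO factors. Bbc3 1423315_at had signals of 257 and 202 in exposed embryos with NTD, 239, 239.5 and 220.1 in those without, and 159 and 192 in controls. It was the only tested probe set of the 23 in which all exposed embryos were above both controls. The means were 231.6 ± 21.2 in exposed embryos (SD, n = 5) and 175.5 ± 22.8 in control embryos (SD, n = 2). Its log2 fold change was 0.40 (SE 0.18, 95% interval 0.01 to 0.79, unadjusted p = 0.0448 in limma, exact permutation p = 0.048), and it did not pass over all probe sets (adjusted p = 0.30).

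Bcl2l11 encodes BIM, which is held on the dynein light chain and released on growth factor loss, and is a known FOXO target. Its most upstream promoter window, on the plus strand at chr2:128125788-128126037 (GRCm38.p6), is shown because it held a FOXO core, at base -227 from the start. Capitals mark, from the left, the FOXO core, 2 Sp1 boxes, a CCAAT box read on the other strand and the last Sp1 box.

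Bcl2l11: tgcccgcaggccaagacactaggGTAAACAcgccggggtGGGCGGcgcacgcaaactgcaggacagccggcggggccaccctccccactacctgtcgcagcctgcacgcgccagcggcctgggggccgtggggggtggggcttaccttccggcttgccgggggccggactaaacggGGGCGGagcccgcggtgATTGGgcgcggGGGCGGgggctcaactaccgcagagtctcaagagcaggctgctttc

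The other Bcl2l11 window, chr2:128127325-128127574, held no FOXO core. Of the 3 Bbc3 windows, 1 held a FOXO core. A match describes letters in the window and not a bound factor. The 5 Bcl2l11 probe sets all overlapped between groups. The one of highest signal, 1456005_a_at, ranged over 984 to 1684 in exposed embryos and 981 to 1068 in control embryos (log2 fold change 0.24, adjusted p = 0.575). The others had log2 fold changes of -0.29 (1426334_a_at), 0.05 (1435448_at), 0.17 (1435449_at) and 0.00 (1456006_at).

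**Figure D3:**
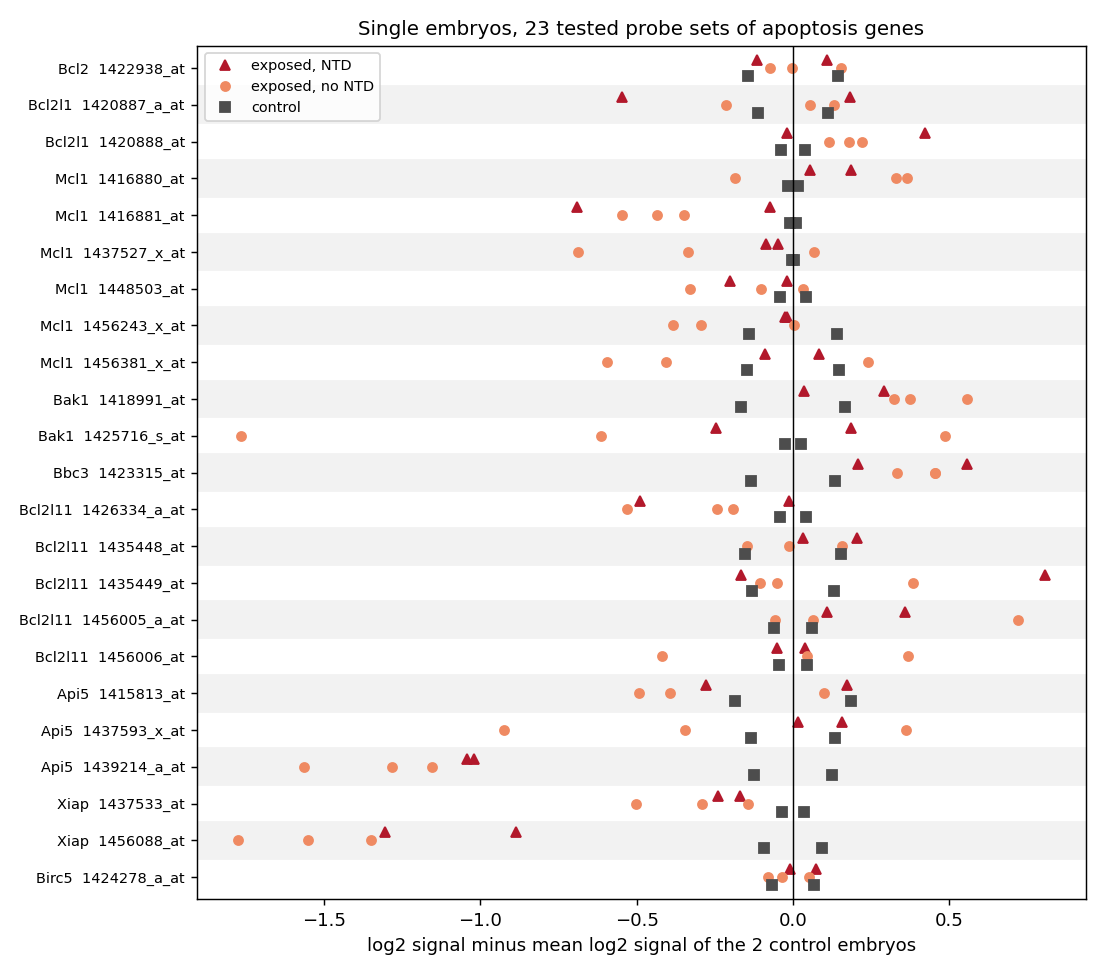
Log2 signal of every embryo minus the mean log2 signal of the 2 control embryos (x axis) for the 23 tested probe sets (y axis), with exposed embryos with NTD as triangles, exposed embryos without NTD as circles and control embryos as squares. Api5 1439214_a_at and Xiap 1456088_at show all exposed embryos apart from the controls, and Birc5 1424278_a_at shows all 7 within a narrow range.

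The exposed embryos with NTD were set against those without it to ask whether these genes differed with the malformation. No probe set passed, among the 23 or among all 14554 (0%), and at an unadjusted p under 0.05 in limma it was 0 of 23 beside 3.02% of all. The log2 fold changes, NTD minus no NTD, ranged from -0.25 (Bak1 1418991_at) to 0.60 (Bak1 1425716_s_at), with a median of 0.07. With 2 embryos against 3 an exact permutation test cannot go below p = 0.1. Embryos with and without NTD did not overlap in 3 of the 23, beside 16.1% of all tested probe sets, which is no excess. In Api5 1439214_a_at both embryos with NTD (236 and 239.7) were above the 3 without (164 to 218), by 0.30 on the log2 scale (95% interval -0.12 to 0.73). Xiap 1456088_at showed the same order, 166 and 124 with NTD and 89.6 to 120.4 without (difference 0.46, 95% interval -0.11 to 1.04). Bak1 1418991_at was lower in both embryos with NTD, at 225 and 269, than in the 3 without, at 275 to 323. All 3 intervals included 0.

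The further genes of the pathway were taken as lists, in which a gene counted by its tested probe set of highest signal. Of 50 genes tested in 6 lists, 0 passed in limma, and 3 were higher and 2 lower at an unadjusted p under 0.05. That is 5 of 50, beside 0.172% of all tested probe sets that passed and 16.2% at the unadjusted level, so the lists did not exceed the background. Among 7 tested members of the wider BCL2 family, Bnip3, a mitochondrial protein induced in low oxygen, had signals of 1766 and 2993 in exposed embryos with NTD, 5137, 2645 and 2022 in those without, and 1086 and 976 in controls. All exposed embryos were above both controls, the highest being the embryo with high yolk sac markers, and the log2 fold change was 1.39 (SE 0.32, adjusted p = 0.0974). The sensitisers Hrk (0.39) and Bad (0.54) and the effector-like Bok (0.27) did not pass, and the other Bad probe set, 1416583_at, had -0.17. The median log2 fold change of this list was 0.27, beside 0.00 over all tested probe sets.

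Of 7 tested IAP proteins and their antagonists, Septin4, whose ARTS product binds XIAP, had a log2 fold change of 0.64 (adjusted p = 0.267). It read 115 and 114 in exposed embryos with NTD, 138, 158 and 144 in those without, and 83.7 and 87.3 in controls. It reached the limit in 2 of 5 exposed embryos and in 0 of 2 controls, so it entered the test only through the group in which it was higher. Nothing is read from that separation, and the count of higher genes at an unadjusted p under 0.05 includes Septin4. The mitochondrial antagonists Htra2 and Diablo had log2 fold changes of 0.28 and -0.15 (another Htra2 probe set, 1436269_s_at, had -0.01), and Birc2, a further IAP ubiquitin ligase, -0.14. Of 12 caspases, substrates and apoptosome genes, 0 passed at either level by their probe set of highest signal. The tested Acin1 probe sets disagreed, at 0.26 (1421197_a_at) and -0.64 (1416568_a_at, unadjusted p = 0.00184, adjusted p = 0.103 in limma). Apaf1, the scaffold that cytochrome c assembles into the apoptosome, had -0.27 (1452870_at) and -0.59 (1450223_at, unadjusted p = 0.0147, adjusted p = 0.196 in limma). The endonuclease Dffb had -0.37 and its inhibitor Dffa 0.35, and the mitochondrial nuclease Endog had 0.38. Dffb reached the limit in 0 of 5 exposed and 2 of 2 control embryos, and Endog in 3 of 5 exposed and 0 of 2 control embryos, so these 2 genes entered the test only through the group in which they were higher. The 4 tested genes of the death receptor branch included Tnfrsf1a, a receptor for tumour necrosis factor, at 0.29, the adaptor Fadd at 0.13, the co-chaperone Bag1 at 0.15 and the caspase-8 inhibitor Cflar at -0.02.

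Of 8 tested genes that induce BH3-only proteins, the stress kinases Mapk9 and Mapk10 (JNK2 and JNK3) had log2 fold changes of -0.39 and -0.52 (unadjusted p = 0.0198 and 0.0393, adjusted p = 0.222 and 0.286 in limma), and a second Mapk9 probe set, 1421876_at, had -0.22. The 3 tested Mapk8 (JNK1) probe sets disagreed, at 0.24 (1420932_at), -0.37 (1420931_at) and -0.31 (1437045_at), and Jun had -0.19 and -0.04. Mapk9 read 342 and 351 in exposed embryos with NTD, 300.5, 294 and 300.5 in those without, and 421 and 408 in controls, with no overlap. The Foxo3 probe sets disagreed, at -0.06 (1434831_a_at) and 0.39 (1434832_at, unadjusted p = 0.0311, adjusted p = 0.262 in limma). Foxo1 had 0.12 (1416982_at), 0.35 (1416981_at) and 0.20 (1416983_s_at), and none of these passed. Of 12 tested genes that act with survivin in mitosis, Incenp, its partner in the chromosomal passenger complex, had a log2 fold change of 0.41 (unadjusted p = 0.0178, adjusted p = 0.212). The 2 further Incenp probe sets gave 0.34 (1423092_at) and -0.20 (1423093_at). The mitotic regulators Plk1, Ube2c and Aurka had 0.27, 0.16 and -0.14, and the median of the list was 0.01.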

How the data were processed

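RNA of single whole embryos was hybridised to 7 one-colour Affymetrix arrays. The authors deposited MAS5 signals, a linear intensity per probe set scaled to a common trimmed mean on each array, and these were used without further scaling. MAS5 subtracts mismatch probe signals, so low values are noisy. The version was not given in the sources used here. Signals below 1 were set to 1 and converted to log2. Probe sets whose signal reached their array's 40th percentile in at least 2 of the 7 arrays were fitted in limma 3.58.1 (R 4.3.3) with lmFit and trended eBayes, tested first on simulated data, with Benjamini-Hochberg adjustment over all 14554. Exposed embryos (n = 5) were compared with controls (n = 2), and NTD with no NTD in a fit of 3 groups. Gene names came from the platform annotation: 20393 probe sets had 1 symbol, 691 several and 1606 none, and those with several were not named. Of all member probe sets every one is named, and of each further list up to 4 genes of smallest unadjusted p by their probe set of highest signal. Acin1 and Foxo3 are named besides, each for its other probe set, and Foxo1 beside Foxo3. All 10 listed genes matched RefSeq promoter windows (17 windows). The number of arrays limits the precision. Members, lists and tests were chosen with earlier results of these data known. Api5 and Xiap, and Mapk10 of the further lists, were among the genes the study picked from these embryos. For Api5 the study also reported a smaller decrease by quantitative PCR, in another transcript region and in embryos of other pregnancies. Those measurements, and the study's second, pooled array experiment, are not part of the data used here. Alternatives covered scaling, floor, filter, model options and each embryo left out.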

Additional observations from a re-analysis of the deposited data

How the results depend on the processing

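The single call, Api5 1439214_a_at, depended on the setting, while its direction held in all 20 alternatives. The count of called probe sets among the 23 was 0 after quantile normalization, without a filter, with a 60th percentile filter, without the variance trend, with a replicate block, and with only the exposed embryos with NTD. It was 2 (Api5 and Xiap 1456088_at) after adding 50 to each signal, with array weights, and with only the exposed embryos without NTD, and 0 to 2 when single embryos were left out. A Welch t-test, the kind named in the methods, was run on log2 signals of the probe sets tested here. It gave 0 after adjustment and 5 unadjusted, beside 18.2% of all probe sets unadjusted. The study's detection flags, fold-change filter and Cyber-T were not repeated, so this is not its full procedure. Over all probe sets the count moved from 25 to 18 (quantile), 50 (adding 50), 8 (no filter), 17 (60th percentile), 10 (no trend), 491 (array weights) and 0 (replicate block). The cause was not tested. Non-overlapping probe sets numbered 3 of 15 with the 60th percentile filter (26.2% of all probe sets) and 5 to 11 when single embryos were left out, while the share of all probe sets ran over 28.5% to 44.4% and was highest with 1 control left. With array weights 1 gene of the further lists passed (Bnip3). The block used embryo numbers, which the labels do not tie to a shared litter, and exposed and control embryos had different dams. Same-numbered embryos deviated from their group means with correlations of -0.25 to 0.03. In a group of 2 the deviations mirror each other, so these correlations cannot show whether the numbers mark a block.

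Small fold changes turned sign. With the replicate block these were exposed minus control Bcl2 (-0.02), and NTD minus no NTD Bcl2l11 1456005_a_at (0.23), Bcl2 (0.04) and Mcl1 1416880_at (0.03). Median centring gave 0.01 for Bcl2l11 1456005_a_at between NTD and no NTD, and Api5 1437593_x_at was 0.09 with only the exposed embryos with NTD. With single embryos left out, exposed minus control ranged over -0.13 to 0.16 (Bcl2), -0.19 to 0.04 (Bcl2l1 1420887_a_at), -0.11 to 0.20 (Bcl2l11 1435448_at), -0.36 to 0.01 (Api5 1415813_at) and -0.28 to 0.05 (Api5 1437593_x_at). NTD minus no NTD then ranged over -0.14 to 0.08 (Bcl2), -0.54 to 0.19 (Bcl2l1 1420887_a_at), -0.19 to 0.25 (Bcl2l1 1420888_at), -0.23 to 0.05 (Mcl1 1416880_at), -0.25 to 0.37 (Mcl1 1416881_at), -0.07 to 0.11 (Mcl1 1448503_at), -0.21 to 0.14 (Bbc3), -0.17 to 0.31, -0.24 to 0.73 and -0.16 to 0.23 (Bcl2l11 1426334_a_at, 1435449_at and 1456005_a_at) and -0.02 to 0.43 (Api5 1415813_at). With 2 control embryos, each fold change rests on few arrays.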
